A study of Caenorhabditis elegans with 2 samples.

Results

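The members described here were the aminoacyl-tRNA synthetase genes of Caenorhabditis elegans, taken as every protein-coding gene whose RefSeq or Ensembl symbol is a single letter followed by ars-1 or ars-2. There were 32 such genes among 19973 protein-coding genes, covering all 20 amino acid letters, with 2 genes for each of 12 letters and 1 gene for each of the other 8. The data were transcription factor ChIP-seq of whole larvae at the L4 stage, in 2 biological replicates of a single group with both sexes pooled. All worms carried the unc-119(tm4063) mutation on chromosome III and the transgene wgIs355, in strain OP355. The labels do not name 1 tagged protein: the free text has ZK337.2 joined to eGFP, while mdl-1 stands under strain and antibody. The tagged protein came from a transgene and whole animals were used, so a site bound in fewer cells and a site bound less in each cell cannot be told apart. No second stage, strain or treatment was there to compare. Depth is unknown, because peaks come without read counts. The values are those of the authors' peak caller: a signal value per peak, whose scale is not stated. Its median was 17.4 in the list called on both replicates together (the pooled list), 9.91 in the replicate 1 list and 9.79 in the replicate 2 list, so pooled values are not set against replicate values, and ratios are taken only between the 2 replicates, whose medians are close. The caller also gives a −log10 q for each peak, which goes down to 0.0177 in the pooled and replicate lists, so these hold many peaks of low confidence.

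Aminoacyl-tRNA synthetases join each amino acid to its tRNA, the step that sets the meaning of the genetic code, and every dividing or growing cell needs all of them. Separate nuclear genes usually serve the cytosol and the mitochondrion, although some enzymes serve both compartments. The enzymes fall into a pair of unrelated structural classes, and uncharged tRNA activates the kinase GCN-2, which lowers translation by phosphorylating the initiation factor eIF2 alpha. The transcription factor ATF-4 acts downstream, its own translation rising when eIF2 alpha is phosphorylated. MDL-1 is a Mad-type member of the Myc, Mondo and Max network, whose dimers bind the E-box CACGTG.

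The sequences under the 4 peaks at synthetase starts are shown first, since they are the bound sites that the values below refer to. Each runs 5' to 3' on the strand of the named gene, up to 100 bp to either side of the summit, shortened where an annotated gene begins, on the ce11 assembly from RefSeq. Capitals mark the E-box CACGTG, the repeat GAGAGA or the string AGACGC, on either strand. The aars-1 stretch is chrII:11464515-11464715 (minus strand), the hars-1 stretch chrIV:10858681-10858881 (plus strand), the ears-2 stretch chrIV:390469-390559 (minus strand, the whole 91 bp between ears-2 and its neighbour) and the mars-1 stretch chrIV:11635684-11635884 (minus strand).
aars-1: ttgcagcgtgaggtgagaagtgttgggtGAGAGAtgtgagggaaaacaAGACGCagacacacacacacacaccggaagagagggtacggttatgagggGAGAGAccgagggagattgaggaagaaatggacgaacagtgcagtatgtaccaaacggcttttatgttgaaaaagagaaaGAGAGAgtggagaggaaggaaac
hars-1: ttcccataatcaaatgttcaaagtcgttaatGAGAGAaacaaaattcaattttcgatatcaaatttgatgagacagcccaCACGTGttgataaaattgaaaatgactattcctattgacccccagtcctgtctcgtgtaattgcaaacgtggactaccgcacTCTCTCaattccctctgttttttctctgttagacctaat
ears-2: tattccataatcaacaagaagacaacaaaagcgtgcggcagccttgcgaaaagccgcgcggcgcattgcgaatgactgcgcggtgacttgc
mars-1: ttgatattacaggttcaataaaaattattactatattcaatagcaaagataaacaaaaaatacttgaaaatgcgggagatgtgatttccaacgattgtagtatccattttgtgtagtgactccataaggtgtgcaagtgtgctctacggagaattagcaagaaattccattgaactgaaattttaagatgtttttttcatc

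The 4 sequences differed in composition and in the motifs they held. Over the 201 bp around the summit, GC content was 48.8% at aars-1, 45.8% at ears-2, 37.3% at hars-1 and 30.8% at mars-1. The median was 42.8% for all 4293 peaks of the list that passed the authors' irreproducible discovery rate comparison (the IDR list). The hars-1 site held the E-box, its centre 17 bp from the summit, and a GAGAGA match on either side of it. The aars-1 site held 3 matches to GAGAGA and 1 to the string AGACGC but no E-box, and the stretches shown for ears-2 and mars-1 held none of the 4 motifs searched, which were those just named and the string GCGCGC, each on both strands. With the full 201 bp, which reaches into annotated transcript, the ears-2 window held AGACGC. Within 100 bp of their summits, 18.4% of all IDR peaks held the E-box, 44.0% had GAGAGA, 21.2% had AGACGC and 8.06% had GCGCGC. In the 201 bp upstream of every coding start, whether bound or not, the shares in the same order were 4.23%, 16.4%, 5.48% and 2.55%. The motifs can overlap, and a match is a string of letters only.

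Binding at synthetase genes was the exception, at close to the rate of the genome. The start window was set as the 1000 bp before and the 200 bp after the annotated start, and 4 of the 32 genes (12.5%) had an IDR summit in it. Of all protein-coding genes, 10.9% had one. By their RefSeq product names the 4 were aars-1, the mitochondrial alanine enzyme, hars-1, the histidine enzyme, ears-2, the mitochondrial glutamate enzyme, and mars-1, the cytoplasmic methionine enzyme. With 1 group of samples, no test between conditions was possible, and the shares are descriptions.

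The pair with the stronger peaks was aars-1 and hars-1. At aars-1 (WBGene00000196, chrII:11460205-11464497, minus strand) the signal was 86.9 in replicate 1, 56.2 in replicate 2 and 138 in the pooled list, with the summit 118 bp upstream of the start. At hars-1 (WBGene00002001, chrIV:10858957-10861284, plus strand) the signal was 68.9 in replicate 1, 67.3 in replicate 2 and 134 in the pooled list, with the summit 176 bp upstream. Both therefore stood well above the lowest IDR signal of 45.6 in the pooled list and above the median of 75.1 for the 1844 IDR peaks in coding start windows. Among the 4293 IDR peaks they ranked 769 and 804, and the highest signal in any coding window was 1353, so neither was among the strongest sites of the genome. The replicates' summits at hars-1 lay 4 bp apart, and the peak in the pooled list was 99 bp wide, against 396 bp at the other 3 genes.

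The remaining bound starts sat in the lower part of the list. At ears-2 (WBGene00001338, chrIV:388686-390468, minus strand) the signal was 22.1 in replicate 1, 30.5 in replicate 2 and 54.4 in the pooled list, ranking 3401, with the summit 12 bp upstream of the start. At mars-1 (WBGene00003415, chrIV:11631941-11635487, minus strand) it was 23.7 in replicate 1, 27.9 in replicate 2 and 51.5 in the pooled list, ranking 3652, with the summit 297 bp upstream. These are the members just inside the limit of the IDR list, and when the 4293 strongest peaks of replicate 1 alone were read in its place, neither start was bound, while with those of replicate 2 alone both were. The deposited −log10 q of the pooled peak was 3.36 at ears-2 and 3.39 at mars-1, against 3.80 at aars-1 and hars-1, and 3.80 is the highest value in that list.

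**Figure D1:**
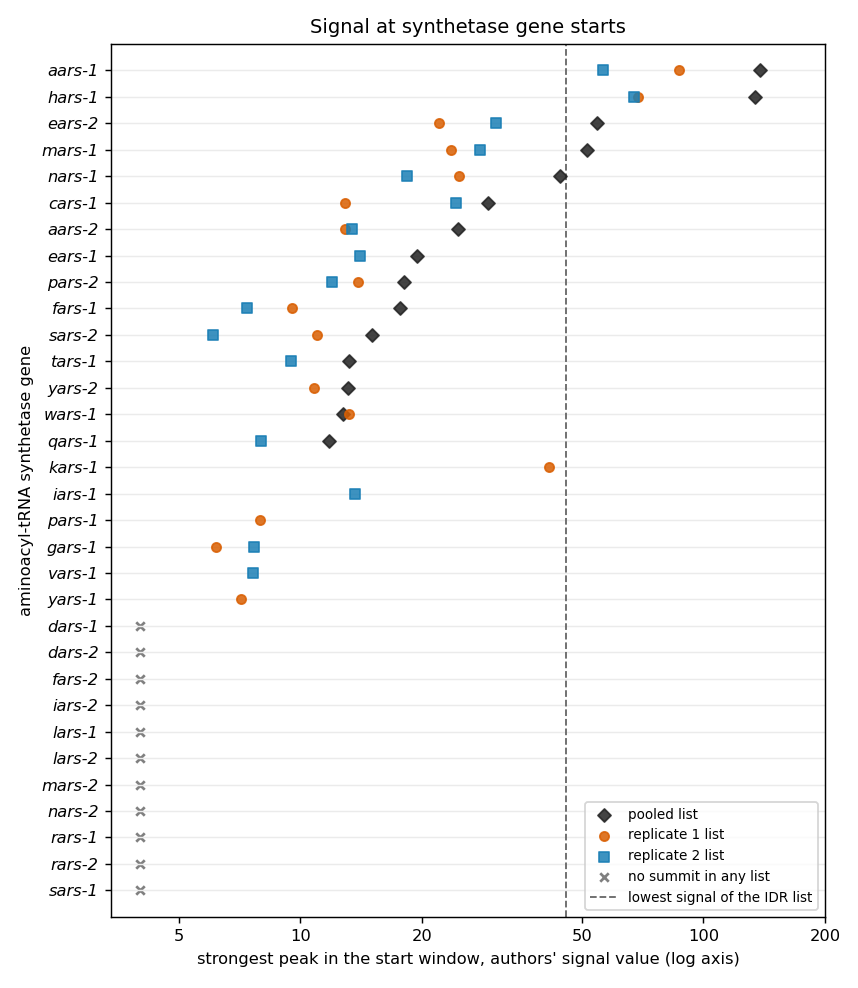
Strongest peak in the start window of each of the 32 synthetase genes (rows) by the authors' signal value (log axis), for the pooled list (diamonds), replicate 1 (circles) and replicate 2 (squares); crosses mark the 11 genes with no summit in any list and carry no value. The pooled signal passes the dashed line at 45.6, the lowest IDR signal, at aars-1, hars-1, ears-2 and mars-1, and nars-1 lies just under it at 44.0.

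The replicates differed at these 4 peaks by no more than they did at IDR peaks in general. The log2 ratio of replicate 1 to replicate 2 was 0.63 at aars-1, 0.03 at hars-1, -0.24 at mars-1 and -0.46 at ears-2. Across the 4279 IDR peaks with a peak in both replicates' lists, the median was 0.10, with a 10th percentile of -0.54 and a 90th percentile of 0.76, so all 4 ratios fell inside that span. Both pairs kept their order in both replicates, aars-1 and hars-1 being higher than ears-2 and mars-1, while the order within each pair differed between replicates. The highest replicate 2 value was at hars-1 and the highest replicate 1 value at aars-1.

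**Figure D2:**
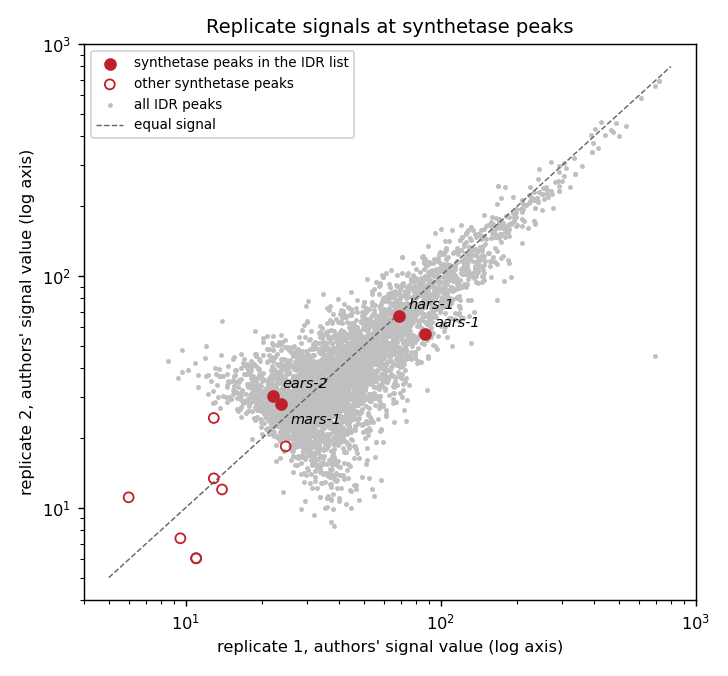
Signal in replicate 1 (x, log axis) against replicate 2 (y, log axis) for synthetase peaks of the IDR list (filled), for other synthetase peaks found in both replicates (open) and for all 4279 IDR peaks with a peak in both lists (grey). The aars-1 point lies below the line of equal signal, ears-2 and mars-1 above it, and hars-1 on it.

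Below the IDR limit, 11 more synthetase genes had a summit of the pooled list in their window, and the closest to the limit was nars-1. In all, 15 of the 32 genes had a pooled summit (46.9%), against 38.9% of all coding genes. With each peak given to the nearest start only, the pooled count was 11 of the 32, against 33.6% of all coding genes. At nars-1 (WBGene00003815), the asparagine enzyme, the signal was 24.7 in replicate 1, 18.4 in replicate 2 and 44.0 in the pooled list, 96.5% of the lowest IDR signal, with a −log10 q of 3.00. It is the member just outside the limit, and its replicate 1 value was higher than those of ears-2 and mars-1 whereas its replicate 2 value was lower. Its summit, 384 bp upstream, lay nearer to the start of nduf-6, a complex I subunit gene, at 294 bp.

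The next peaks were weaker, and several were seen in a single replicate. Their −log10 q in the pooled list was 1.42 at cars-1, 0.897 at aars-2 and lower at the other 8, down to 0.0475 at qars-1, against 3.07 for the lowest peak of the IDR list. The cysteine gene cars-1 had a signal of 12.9 in replicate 1, 24.4 in replicate 2 and 29.2 in the pooled list. Its log2 ratio of -0.91 is outside the 10th to 90th percentile span of IDR peaks. No such span was taken for peaks below the IDR limit, to which the cars-1 peak belongs. The cytoplasmic alanine gene aars-2 had 12.9 in replicate 1, 13.4 in replicate 2 and 24.6 in the pooled list. The proline gene pars-2, whose product names include a mitochondrial one, had 13.9 in replicate 1, 12 in replicate 2 and 18.1 in the pooled list. All 3 had a peak in both replicates. Their replicates' summits lay 279 bp apart at pars-2, 124 bp at cars-1 and 165 bp at aars-2. At the 4 bound genes the gap was 4 to 88 bp. Other genes below the IDR limit went both ways, with 222 bp at sars-2, 37 bp at nars-1 and 1 bp at fars-1.

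The rest of this group had pooled signals between 11.8 and 19.5. The phenylalanine gene fars-1 (pooled 17.7, replicate 1 9.54, replicate 2 7.39) had its summit 903 bp upstream, only 139 bp from the start of rbm-5. The serine gene sars-2 had 11.0 in replicate 1, 6.06 in replicate 2 and 15.1 in the pooled list. At 5 genes a single replicate had a summit in the window. These were ears-1 (14.1 in replicate 2, 19.5 in the pooled list), tars-1 (9.48 in replicate 2, 13.2 in the pooled list) and qars-1 (8.01 in replicate 2, 11.8 in the pooled list) on the one hand, and yars-2 (10.8 in replicate 1, 13.1 in the pooled list) and wars-1 (13.2 in replicate 1, 12.8 in the pooled list) on the other. The ears-1 summit lay 47 bp from the start of ZC434.3, nearer than the 312 bp to the start of ears-1. The qars-1 summit lay 389 bp from the start of Y41E3.7 and 463 bp from that of qars-1. The median pooled signal of the 11 genes was 17.7, against 18.8 for the 5591 coding genes with a pooled but no IDR summit. These weak peaks were thus of much the same median size as such peaks elsewhere.

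In each replicate taken alone, 1 in 2 synthetase genes had a peak at its start. A summit lay in the window of 16 of the 32 genes in replicate 1, against 40.6% of all coding genes, and of 16 of the 32 in replicate 2, against 39.7%. In both replicates there were 11 (34.4%, against 28.7%). With each peak given to the nearest start only, the counts were 13 in replicate 1, against 34.9%, and 11 in replicate 2, against 34.1%. Another 6 genes had a summit in a replicate's list but none in the pooled list: kars-1, described below, and gars-1, iars-1, pars-1, vars-1 and yars-1, whose values in the replicates' lists ran from 6.19 in replicate 1 at gars-1 to 13.7 in replicate 2 at iars-1. The 11 without a summit in any of the 4 lists were dars-1, dars-2, fars-2, iars-2, lars-1, lars-2, mars-2, nars-2, rars-1, rars-2 and sars-1. This set holds both aspartate, both leucine and both arginine genes, so for these amino acids neither enzyme gene had a peak at its start. No share of all coding genes is set beside these 6 and 11 genes, so the counts are descriptions only.

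**Figure D3:**
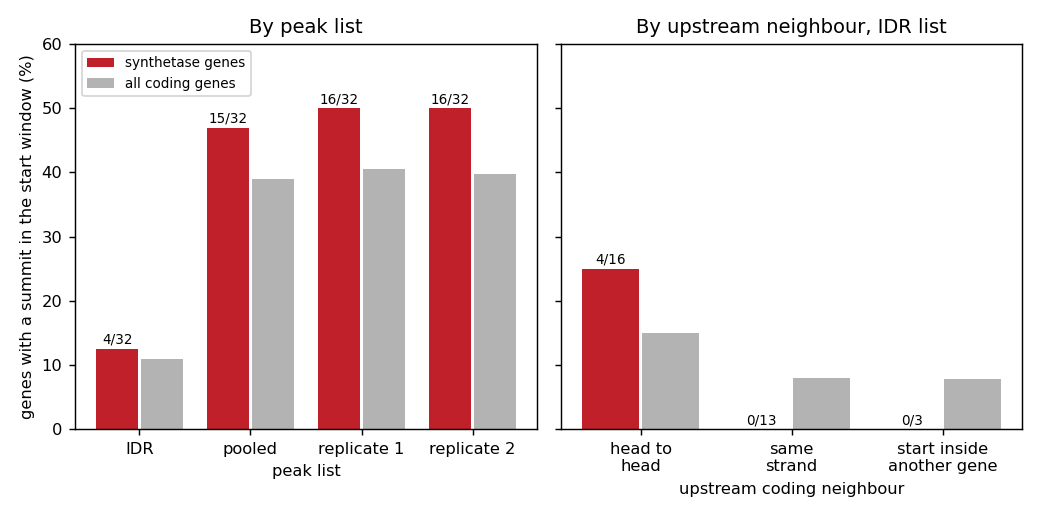
Share of genes with a summit in the start window (y, percent) for synthetase genes (counts above the bars) and all coding genes, by peak list (left) and, for the IDR list, by the orientation of the nearest upstream coding gene (right). The synthetase share is 12.5% in the IDR list, against 10.9% of all coding genes, and the 4 bound synthetase genes are all in the head-to-head class.

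All 4 bound synthetase genes lie beside an upstream gene that points the other way. This was looked at after the bound genes were known, so it is a description. In 16 of the 32 genes the nearest upstream coding gene is on the opposite strand, head to head, and 4 of these 16 had an IDR summit, against 1262 of the 8420 head-to-head coding genes. Of the 13 synthetase genes whose nearest upstream coding gene is on the same strand, 0 had an IDR summit and 3 had a pooled one, against 8.02% and 35.3% of the 10157 coding genes so placed. The remaining 3, fars-1, iars-2 and tars-1, start inside another gene. Of these, 0 had an IDR summit and 2 had a pooled one, against 7.76% and 32.8% of the 1391 coding genes so placed. Among the same-strand genes, rars-1 follows rpb-8 by 65 bp, lars-2 follows ZK524.4 by 99 bp and yars-1 follows mars-2, another synthetase gene, by 109 bp.

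Since the bound genes have close neighbours, a peak can also be assigned to the gene across from it. The hars-1 summit lay 285 bp from the start of T11G6.2, which RefSeq lists as a sugar phosphate exchanger. The ears-2 summit lay 80 bp from uncp-18, listed as a syntaxin-binding protein, and the mars-1 summit 864 bp from F58B3.6. All of these distances were larger than those to the synthetase starts, so each of these 3 peaks was nearest to its synthetase gene, but hars-1, ears-2 and mars-1 each share their peak with a second start window. The aars-1 peak, too, lay in a second start window.

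**Figure D4:**
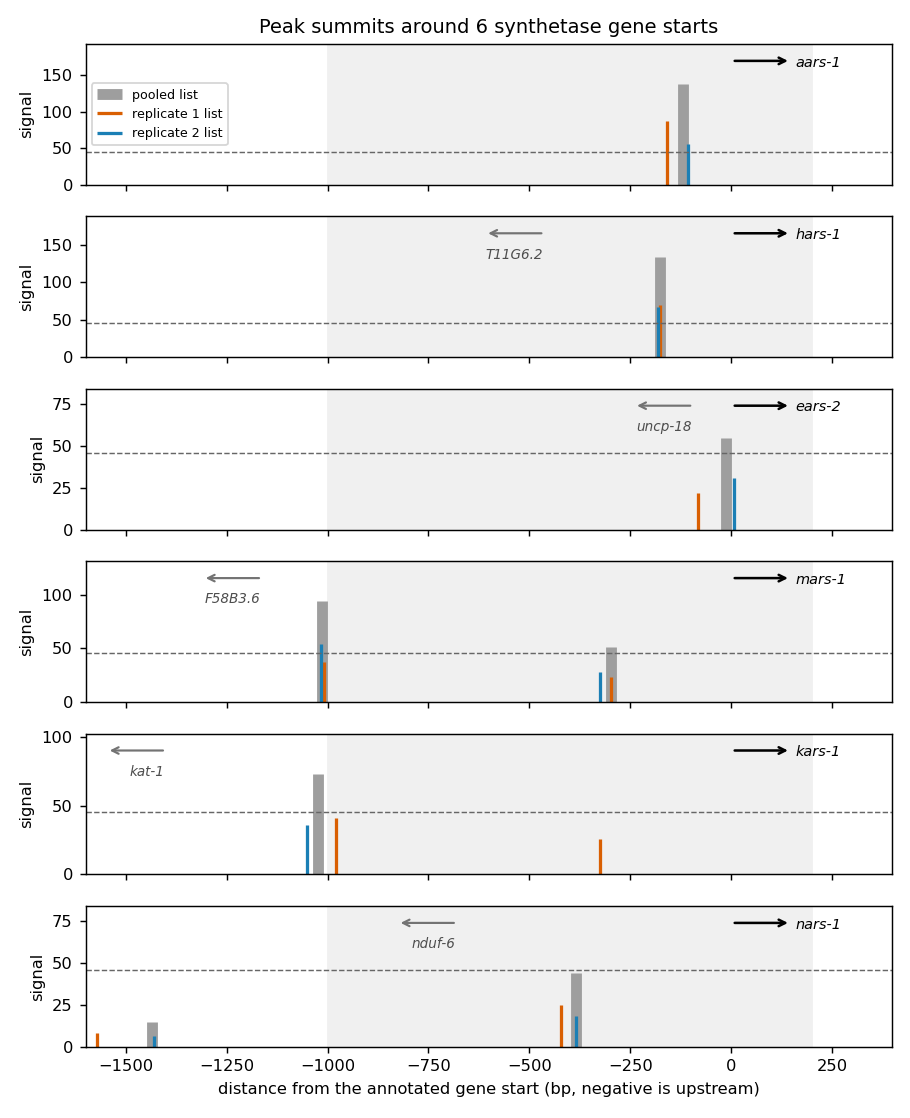
Summits of the pooled list (wide grey lines), replicate 1 (orange) and replicate 2 (blue) around 6 synthetase starts, by distance from the start (x, bp, negative is upstream) and the authors' signal value (y); grey shading is the start window, arrows are coding starts with their direction (the neighbour of aars-1 is not drawn), and the dashed line is the lowest IDR signal of 45.6. At mars-1 and kars-1 the strongest pooled peak lies just beyond the window, on the side of the neighbour, at 1015 and 1025 bp.

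Outside the window but within 3000 bp, IDR peaks lay near 4 more synthetase starts, and some of these peaks carried an E-box. These, too, were looked at after values were seen. Within 3000 bp of a synthetase start there were 9 IDR peaks. They lay near 8 of the 32 genes (25.0%), a share close to the 22.3% of all coding genes with an IDR summit that near. Of the 9 peaks, 5 had CACGTG within 100 bp of the summit, against 18.4% of all IDR peaks. Near nars-1 the peak lay 2758 bp downstream of the start and had no E-box within that distance of its summit. Its signal was 24.8 in replicate 1, 39.5 in replicate 2 and 65.1 in the pooled list. At kars-1, the lysine gene, a summit 1025 bp upstream had a signal of 41.3 in replicate 1, 35.6 in replicate 2 and 73.1 in the pooled list. It lay 374 bp from the start of kat-1, a thiolase gene, and 25 bp outside the kars-1 window. In replicate 1 the same peak had its summit 978 bp upstream and so fell inside the window, and that replicate also had a peak of 25.5 at 325 bp upstream with no summit of replicate 2 or the pooled list in the window. At mars-1 a second peak 1015 bp upstream was stronger than the one in the window, with 37.1 in replicate 1, 53.8 in replicate 2 and 93.8 in the pooled list, and lay 146 bp from F58B3.6.

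A further pair of E-box peaks lay inside neighbouring genes. The phenylalanine gene fars-2 had one 1669 bp upstream, inside chk-2, a checkpoint kinase gene active in meiosis, with 52.8 in replicate 1, 21.6 in replicate 2 and 73.4 in the pooled list. The glycine gene gars-1 had one 2318 bp upstream, inside ulp-1, with 25.3 in replicate 1, 19.9 in replicate 2 and 47.2 in the pooled list. The coding start nearest to the peak inside ulp-1 was that of T10F2.2, at 634 bp. The fifth E-box is that of hars-1. The sites are shown as 30 bases on the strand of the synthetase gene, with CACGTG in capitals, at chrIV:10858749-10858778 (hars-1), chrIV:11636502-11636531 (mars-1), chrII:7073444-7073473 (kars-1), chrV:19909110-19909139 (fars-2) and chrIII:5165939-5165968 (gars-1).
hars-1: tgagacagcccaCACGTGttgataaaattg
mars-1: ctgccgctcattCACGTGccacgagagaac
kars-1: ttcaagagttccCACGTGcaattgaaagtc
fars-2: tgaacaacgttcCACGTGggtccccaccac
gars-1: attatcacttgtCACGTGgtcattctcaga

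In all 5 the centre of CACGTG lay close to the summit, at 8 bp for gars-1, 14 bp for mars-1, 17 bp for hars-1, 18 bp for kars-1 and 21 bp for fars-2. These 5 peaks were picked for CACGTG within 100 bp of the summit, so the distances are bounded by that choice. The flanks are printed so that they can be read side by side. An E-box lay somewhere in the window of 5 synthetase genes, namely hars-1, mars-2, rars-2, sars-2 and vars-1, and of these only hars-1 had an IDR summit there. Below the IDR limit, sars-2 had a summit in the pooled list and in both replicates, vars-1 had one in replicate 2, and mars-2 and rars-2 had none in any list. Of the 3667 coding genes with CACGTG in the window, 16.6% had an IDR summit, against 9.66% of the 16306 without. Counted over distance alone, the median synthetase start lay 6351 bp from the nearest IDR summit, against 10782 bp for all coding genes, with a range over the 32 genes of 12 to 49643 bp, the farthest being rars-2.

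By compartment, chromosome and enzyme class the counts were small. RefSeq product names place 5 members in the mitochondrion, of which aars-1 and ears-2 had an IDR summit and mars-2, pars-2 and rars-2 had none. They place 10 in the cytoplasm, of which mars-1 had one. Of the 17 with no compartment in the name, hars-1 had one. Of all coding genes, 10.9% had one. Without replicate 2 the mitochondrial count was 1, and without replicate 1 the cytoplasmic count was 2, so these counts turn on single genes. In the pooled list the counts were 3 of 5, 6 of 10 and 6 of 17, against 38.9% of all coding genes. In none of the 12 amino acids with 2 genes were both bound, and in 3 a single one was. These were aars-1 and not aars-2, ears-2 and not ears-1, mars-1 and not mars-2. With only 10.9% of all coding genes bound, and no share of other gene pairs set beside them, these pair counts are descriptions only. Class I and class II enzymes had 2 bound genes each, of 16 genes each.

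The bound genes were on few chromosomes. Chromosome IV held 8 members, 3 of them bound, against 9.78% of its coding genes, and chromosome II held 4, of which 1 was bound, against 10.3%. Of the 10 members on chromosome I and the 6 on chromosome III, 0 were bound, against 11.3% and 13.3% of all coding genes there. Of the 4 on chromosome V, 0 were bound, against 8.37%. In the pooled list the counts were 6 of 10 on chromosome I (41.4% of all coding genes there), 2 of 4 on II (36.3%), 0 of 6 on III (46.6%), 6 of 8 on IV (36%) and 1 of 4 on V (31.9%). No member lies on the X chromosome, which had the highest share of bound coding genes, 15.2%.

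Other genes of tRNA charging and use were read against the same rule. The first list holds translation factors that bring charged tRNA to the ribosome or act beside them, and also fars-3, a synthetase subunit gene that had no summit. Of its 13 genes matched by symbol, 7 had an IDR summit (53.8%), against 10.9% of all coding genes. Besides the eEF1A genes these were the exchange factor subunit gene eef-1B.1 (73.0 in replicate 1, 64.5 in replicate 2, 126 in the pooled list), its relative eef-1B.2 (26.7, 29.0 and 54.7 in the same order), the translocase gene eef-2 (66.9, 50.2 and 115) and the mitochondrial elongation factor gene tufm-1 (26.9, 20.6 and 46.6). Of the bound genes of this list, eef-1A.1 had its peak also in the start window of rfc-4, and eef-1B.1 in that of aco-2. The eef-2 peak also lay in the start window of clsp-1, and the eef-1G peak in that of ctf-4. The eEF1 gamma gene eef-1G had 56.0 in replicate 1, no overlapping peak in the replicate 2 list and 119 in the pooled list.

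Genes that process or modify tRNA were near the share of the genome. Of the 14 matched, 1 had an IDR summit (7.14%, against 10.9% of all coding genes) and 6 a pooled one (42.9%, against 38.9%). The gene with the IDR summit was mtcu-2, a mitochondrial tRNA modification gene, with 35.1 in replicate 1, 38.6 in replicate 2 and 73.8 in the pooled list. Of the 11 genes listed for the response to uncharged tRNA and for amino acid sensing, 4 had one (36.4%, against 10.9%), but neither gcn-1 nor gcn-2, which act in sensing uncharged tRNA, was among them. Besides pek-1 and atf-4, both on the X chromosome, these were the Rag GTPase gene ragc-1 (53.9 in replicate 1, 67.6 in replicate 2, 122 in the pooled list) and the Raptor gene daf-15 (34.9, 24.4 and 58.0 in the same order). At pek-1, the gene of the PERK kinase, which senses unfolded protein in the endoplasmic reticulum rather than uncharged tRNA, the pooled signal was 249, and at atf-4 it was 260. The ragc-1 peak also lay in the start window of Y24F12A.1, and the atf-4 peak in that of T04C10.11. The lists were chosen with earlier results of these data known, and were not tested.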

How the data were processed

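Binding was read from 4 deposited peak lists on ce11: one for each replicate, a pooled list called on both replicates together against a control, and an IDR list derived from these, per the file descriptions. The deposited signal score of each peak and its −log10 q are the authors' values. Aligner, caller and IDR limit: not given in the sources used here. Lists on ce10 were not used, since positions were read only on the WBcel235 assembly. A gene counted as bound with a summit at most 1000 bp before or 200 bp after its Ensembl release 115 start. RefSeq symbols were paired with 19966 of the 19973 coding genes, 19965 by WormBase identifier and 1 (mars-2) by locus tag. A replicate's value is the strongest peak overlapping the pooled peak by at least 1 bp. Enzyme classes follow textbook assignment. Genes named with values were all members with an IDR summit, the 10 highest pooled signals among the rest, genes sharing a peak, and related genes with an IDR summit; others were chosen after their values were seen. The members and lists were chosen with earlier results of these data known. Window assignment was tested on simulated peaks. Coordinates are 1-based. The upstream neighbour of aars-1 is not reported here. Python 3.11.15, numpy 2.4.6, pandas 2.3.3 and matplotlib 3.10.9 were used.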

Additional observations from a re-analysis of the deposited data

How the results depend on the processing

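The count of 4 bound synthetase genes stayed between 4 and 6 when the window was 500 or 2000 bp upstream or 1000 bp downstream, when any base or the midpoint of a peak counted, with each peak given to the nearest start, with RefSeq starts, with at least 50% overlap in both replicates, and, as settings chosen after seeing the data, with other definitions of the members. Over these settings the share of all coding genes bound ran from 8.54% (500 bp upstream) to 14.7% (2000 bp upstream), against 10.9% in the main list. A steady count is therefore not by itself a steady result relative to the genome. With 2000 bp upstream, fars-2 and kars-1 were added. The bound members numbered 2 with peaks at or above the median IDR signal, where 5.62% of all coding genes were bound. Of these 2, 1 had a mitochondrial and 0 had a cytoplasmic product name. With the pooled list the count was 15 (6 with a cytoplasmic name), where 38.9% of all coding genes were bound. Without replicate 1 the count was 5, where 10.7% of all coding genes were bound. Without replicate 2 it was 4, where 10.6% were. Of those 4, 2 were shared with the main list: ears-2 and mars-1 were lost and kars-1 and nars-1 gained. Over the main list and the settings without 1 replicate, the range was 4 to 5 for all members. It was 1 to 2 for mitochondrial and 1 to 2 for cytoplasmic names. All 21 counts from the pooled and replicate lists under other windows stayed within 1.5 times. The share of all coding genes moved as well, in the pooled list from 30.2% (500 bp upstream) to 49.4% (2000 bp upstream). Taking the replicate peak with the nearest summit in place of the strongest picked the same peak for all 24 replicate values of named peaks, so it was no test of them. No paired analysis was possible because there is a single group. The depth of the libraries is unknown.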

Other observations

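By RefSeq product name, 4 more genes make a synthetase or part of one but fall outside the symbol rule, and none of them had an IDR summit in its start window. They were found by product name and are given after their values were seen. The valine gene glp-4 had a signal of 23.2 in replicate 1, 23.0 in replicate 2 and 39.3 in the pooled list. K03B4.1, listed as a seryl-tRNA synthetase, had 16.0 in replicate 1, no summit in replicate 2 and 18.8 in the pooled list. At prx-10, whose products include a mitochondrial tryptophan enzyme beside a peroxisome factor, the signal was 6.75 in replicate 1, 8.07 in replicate 2 and 11.8 in the pooled list. The gene of the phenylalanine enzyme's beta subunit, fars-3, had no summit in any list.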
